A study of Mus musculus with 12 samples.

Results

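A group of 10 Wnt pathway genes was followed in the thymic stroma of young mice, namely the ligands Wnt4, Wnt5a, Wnt5b and Wnt10b, the receptor Fzd4, the inhibitors or inhibitor receptors Kremen1, Dkk2, Dkk3 and Sfrp1, and the target Axin2. All 10 of these 10 genes had a probe set that named no other gene, out of 19938 genes with such a probe set on the array, and where a gene had several the one with the highest mean over the 12 arrays was taken. The genes were chosen by name and role, with no threshold on their values, though earlier results of these data were known. The tissue was thymic epithelium/stroma of pups at day 7, kept after thymocytes had been washed out, and its RNA was hybridised to 12 whole-transcript mouse arrays. The animals were FCG (4 core genotypes) mice on a C57BL/6J background, whose Y chromosome lacks Sry and in which that gene comes from an autosomal transgene present in several copies. The groups were XYM (Sry-deleted Y, transgene, testes; 2 arrays), XXM (2 X chromosomes, transgene, testes; 4 arrays), XYF (Sry-deleted Y, no transgene, ovaries; 3 arrays) and XXF (2 X chromosomes, no transgene, ovaries; 3 arrays). Gonadal males therefore differ from females by the transgene as well as by their gonads, and XY from XX by both sex chromosomes. The sources do not tell if 1 array stands for 1 pup, and p-values here reflect only how far the arrays of a genotype lie apart, which may be technical.

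Wnt ligands are secreted lipid-modified proteins that bind Frizzled receptors. In the β-catenin branch, a Frizzled together with Lrp5 or Lrp6 stops the destruction complex that holds Axin, so that β-catenin accumulates and acts with Tcf and Lef factors on genes such as Axin2, while other ligands act without β-catenin through receptors such as Ror2. Dickkopf proteins block Lrp6, secreted Frizzled-related proteins bind the ligands themselves, and thymic epithelium is known both to make Wnt ligands and to depend on them for the transcription factor Foxn1.

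Signal is the linear intensity deposited by the authors, and a log2 difference compares groups on its log2 scale. The arrays carry no detection call, so they were read against 1035 probe sets for olfactory receptors, genes used almost only in the nose, with a median of 107 and a 95th percentile of 309.5, called the reference below. Array medians lay between 327.5 and 345.5, and correlations between arrays between 0.961 and 0.98. Xist, Eif2s3y and Sry gave on all 12 arrays the signals their labels call for. Defining markers of cortical epithelium (10 of 10 measured) and medullary epithelium (8 of 9) lay above the reference, and so did those of mesenchyme (9 of 9), endothelium (8 of 8) and thymocytes (10 of 10). Psmb11, the proteasome subunit of cortical epithelium, had 1423 to 1768, and Cd4, a thymocyte coreceptor, had 3601 to 4392, so the tissue was a mixture. In a mixture of this kind fewer cells of a type and less RNA per cell cannot be told apart. On XXM array 10, and less on XXM array 6, genes of heart muscle were high, as described with Dkk3 below. Differences without these arrays are given below for some of the genes only.

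The windows around gene starts are shown because the arrays compare animals with and without Sry and testes, and because Axin2 is a β-catenin target. RefSeq windows of 300 bases (250 before a start and 50 after it, build GRCm38.p6) were at hand for Wnt4, Wnt5b (3 starts), Wnt10b, Fzd4, Dkk2 and Axin2, which makes 8 windows for 6 of the 10 genes. Both strands were searched for CTTTGA (TCF/LEF), AACAAT (SRY) and AGAACA (the core hexamer bound by the androgen receptor), and the 3 motifs share no overlapping match here. CTTTGA stood in 1 of the 8 windows, against 16% of all 32851 windows. AACAAT stood in 0 of 8, against 10.7% of all windows. AGAACA stood in 4 of 8, against 19.0% of all windows, and 3 windows held none of the 3. The Axin2 window (chr11:108920099-108920398, plus strand), the Fzd4 window (chr7:89404116-89404415, plus strand) and the Wnt5b window with the TCF/LEF letters (chr6:119449337-119449636, minus strand) follow, 5′ to 3′ on the strand of the gene, with matches in capitals. The capitals mark AGAACA at base 99 in Axin2 and at base 266 in Fzd4, and CTTTGA at base 180 in Wnt5b, counted from the first base of the window. A match is a description of letters and not a binding site.
Axin2: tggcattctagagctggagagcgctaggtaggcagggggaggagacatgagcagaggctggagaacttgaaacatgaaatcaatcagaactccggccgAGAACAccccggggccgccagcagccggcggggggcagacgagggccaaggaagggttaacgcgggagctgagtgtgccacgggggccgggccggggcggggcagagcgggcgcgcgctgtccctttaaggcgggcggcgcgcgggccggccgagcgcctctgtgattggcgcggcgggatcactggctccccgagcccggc
Fzd4: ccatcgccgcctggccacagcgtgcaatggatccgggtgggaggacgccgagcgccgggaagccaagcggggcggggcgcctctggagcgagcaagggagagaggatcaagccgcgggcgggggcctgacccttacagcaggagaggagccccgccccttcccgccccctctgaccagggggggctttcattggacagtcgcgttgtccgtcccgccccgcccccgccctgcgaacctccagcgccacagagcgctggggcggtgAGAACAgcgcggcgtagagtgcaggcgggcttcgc
Wnt5b: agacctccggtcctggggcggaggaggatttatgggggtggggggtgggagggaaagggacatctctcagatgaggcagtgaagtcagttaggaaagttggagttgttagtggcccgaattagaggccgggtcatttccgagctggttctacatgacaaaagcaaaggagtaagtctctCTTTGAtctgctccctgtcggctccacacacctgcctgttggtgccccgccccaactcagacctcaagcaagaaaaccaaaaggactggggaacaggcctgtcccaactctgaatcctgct

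None of the 10 genes passed an adjusted p of 0.05 in limma (Benjamini-Hochberg over all 35556 probe sets) by gonadal sex, by sex chromosome complement, by their interaction or between single genotypes. For gonadal sex 5 of the 10 had a log2 difference above 0 and 5 below, with adjusted p-values of 0.985 to 0.993 in limma, and the 10 genes had a median of 0.001 where all probe sets had 0.003. The 95% intervals of the 10 male to female ratios ran between 0.807 and 1.54, and those of the XY to XX ratios between 0.715 and 1.21. Ratios beyond these bounds lay outside the interval of each of the 10 genes, while the interaction, with fewer arrays behind each term, was bounded less closely (0.534 to 1.63 as a ratio of ratios). Over all probe sets 0.00281% were called by sex, 0.0366% by complement and 0% by the interaction, so few calls were made anywhere on the array. At an unadjusted p under 0.05 the count was 0 of 10 for each of the 7 contrasts, against 3.03% of all probe sets for sex, 2.55% for complement and 1.54% for the interaction. The arrays of males and females overlapped for all 10 genes, where 0.0731% of all probe sets did not overlap, and those of XY and XX pups overlapped for all 10, where 0.166% did not.

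**Figure D1:**
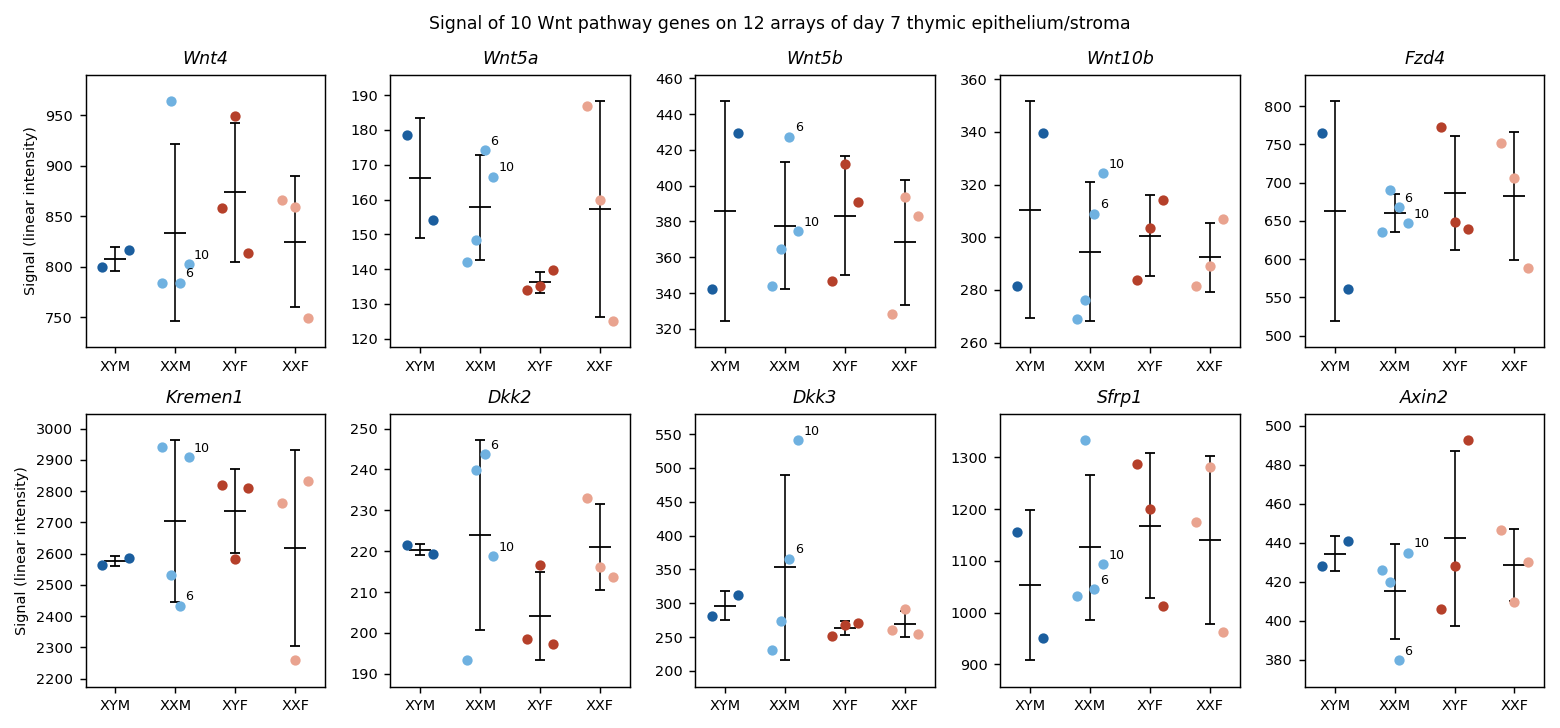
Signal (linear intensity, vertical axis, its own scale in each panel and not starting at 0) of the 10 genes on each array, by genotype from XYM to XXF; points are arrays, bars are mean ± SD, and XXM arrays 6 and 10 are numbered. Male and female arrays overlap in every panel, and Dkk3 reaches 541 on XXM array 10.

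**Figure D2:**
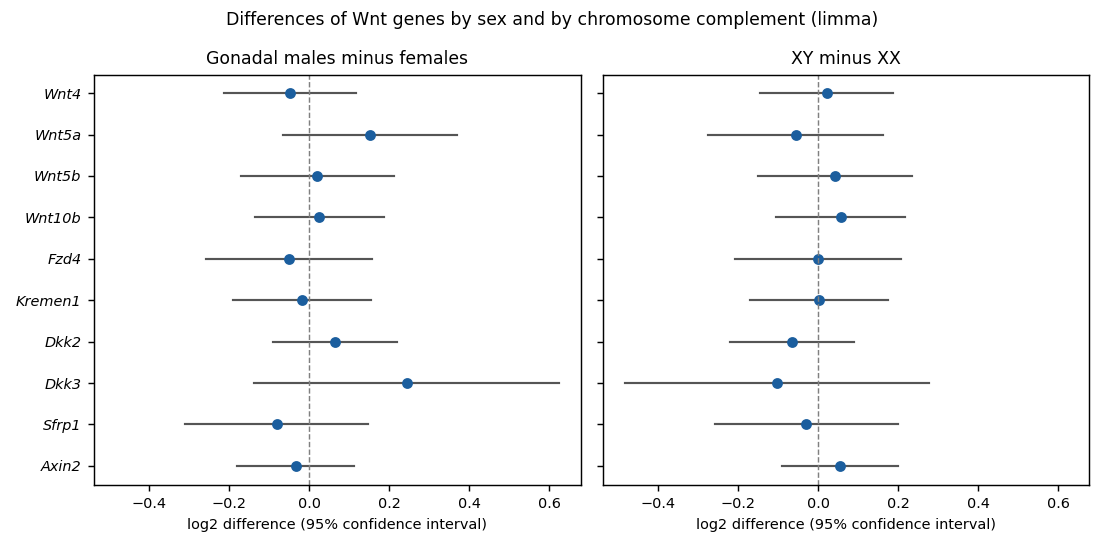
Log2 differences (horizontal axis) of the 10 genes for gonadal males minus females and for XY minus XX, with 95% confidence intervals from limma. Every interval holds 0, and Dkk3 has the widest.

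Wnt4, a ligand of thymic epithelium that is also needed in the developing ovary and kidney, was the brightest of the 4 ligand probe sets relative to the olfactory receptors, above 99.9% of them. Its signal was 799.6 and 816 in XYM and 784, 964, 784.5 and 803 in XXM, against 859, 949 and 814 in XYF and 866, 859 and 749.9 in XXF. XXM array 5 stood highest and XXF array 11 lowest, and males and females overlapped. Males averaged 825 ± 69.1 and females 849 ± 65.5 (SD, n = 6 each), a log2 difference of -0.05 (SE 0.08) with an adjusted p of 0.985 in limma. For XY minus XX it was 0.02, with ratios of 0.905 to 1.14 in the 95% interval. Wnt4 was the only one of the 10 with a second single-gene probe set (mean 592.7), and the 2 sets followed each other weakly over the 12 arrays (r = 0.22, rho = 0.13). The second set gave -0.12 for sex and 0.17 for complement (unadjusted p = 0.0605, adjusted p = 1, limma), so the size of a Wnt4 difference depended on the probe set while neither set gave a call. All 10 cortical epithelial markers had a sex difference below 0 as well (median -0.08), with a summed signal of 29455 to 35274 on male arrays and 32208 to 36586 on female arrays, and their part in the Wnt4 values was not tested.

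Wnt5a, which mostly signals without β-catenin and guides cell movement through Ror2, lay under the reference, at percentile 71.2 of the olfactory receptors. It read 178 and 154 in XYM and 142, 148.5, 174 and 167 in XXM, against 134, 135 and 139.7 in XYF and 187, 159.8 and 125 in XXF. The XYM arrays lay above the XYF arrays, whereas XXF held both the highest and the lowest value of all 12. Males averaged 161 ± 14.7 and females 147 ± 22.8 (SD, n = 6 each), a log2 difference of 0.15 (SE 0.10, 95% interval -0.07 to 0.37, unadjusted p = 0.157, limma). This was the lowest unadjusted p among the 10 genes for sex, and XY minus XX was -0.06 (SE 0.10). Between XYM and XYF alone the log2 difference was 0.28 (SE 0.15, unadjusted p = 0.0901, adjusted p = 0.982, limma), and between XXM and XXF it was 0.02. The difference of these 2 differences was 0.26 with an interval of -0.17 to 0.70 (unadjusted p = 0.212, limma). Among single arrays left out, XXF arrays 3 and 11 moved the sex difference most. It was 0.22 without array 3 (unadjusted p = 0.0353, adjusted p = 1) and 0.07 without array 11 (unadjusted p = 0.391) in limma. Without XXM arrays 6 and 10 together, an alternative chosen after seeing the data, it was 0.09 (unadjusted p = 0.405, limma). In that fit the XXM minus XXF difference of Wnt5a was -0.10. Of the 9 measured mesenchymal markers 8 were above 0 by sex (median 0.07), with a summed signal of 12442 to 18504 on male arrays and 12294 to 18189 on female arrays, and their part in the Wnt5a difference was not tested.

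Wnt5a, Dkk2 and Dkk3 were the 3 of 10 genes whose XYM and XYF arrays did not overlap, a separation that 13.9% of all probe sets showed in groups of 2 and 3 arrays. For XXM against XXF the count was 0 of 10 (1.87% of all probe sets), for XYF against XXF 0 of 10 (3.75%) and for XYM against XXM 0 of 10 (8.59%). Wnt5a, Dkk2 and Dkk3 all lay under the reference. Between XYM and XYF the 1035 olfactory receptor probe sets had a median log2 difference of 0.17, with 89.4% above 0. The XYM minus XYF log2 differences were 0.28 for Wnt5a, 0.11 for Dkk2 and 0.17 for Dkk3. The part of the olfactory shift in them was not tested. By adjusted p, 0.00281% of probe sets were called for XXM against XXF, 0.00562% for XYM against XYF, 0.0169% for XYF against XXF and 0.0197% for XYM against XXM. By unadjusted p the shares were 1.45% for XXM against XXF, 3.14% for XYM against XYF, 0.951% for XYF against XXF and 3.41% for XYM against XXM, and none of the 10 genes was among them in any of these pairs.

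Wnt5b, the close paralog of Wnt5a, lay at the 97.8th percentile of the olfactory receptors and thus above the reference. Its signal was 342 and 429 in XYM and 344, 365, 427 and 374.5 in XXM, against 347, 412 and 391 in XYF and 328, 393 and 383 in XXF. The lowest array of each of the 4 genotypes was among arrays 1 to 4 of the labels, and the genotypes overlapped. The log2 difference was 0.02 (SE 0.09) for males minus females and 0.04 for XY minus XX, with adjusted p-values of 0.993 and 1 in limma. 

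Wnt10b, a ligand of the β-catenin branch known for restraining fat cell formation, lay at the 94.6th percentile, just under the reference. It read 281 and 339.7 in XYM and 269, 276, 309 and 324 in XXM, against 284, 304 and 314 in XYF and 281, 289 and 307 in XXF. XYM array 9 was highest and XXM array 2 lowest, so both ends were in males. The mean was 299.9 ± 28.7 in males and 297 ± 13.5 in females (SD, n = 6 each), with a log2 difference of 0.02 (SE 0.07), and XY minus XX was 0.06, with adjusted p-values of 0.99 and 1 in limma.

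Wnt5b and Wnt10b rose and fell together over the 12 arrays (r = 0.75, and 0.78 within the sets of arrays 1 to 4, 5 to 8 and 9 to 12). These sets, here and below, were formed for this report from the label numbers, and the labels name no batches. Both also followed the median signal of the olfactory receptor probe sets, which ran from 91.3 on XXF array 3 to 130.7 on XYM array 9, with r = 0.84 (rho = 0.81) for Wnt5b and r = 0.90 (rho = 0.90) for Wnt10b. Each of these correlations has 12 arrays as its points, which share the same hybridisations, and is given as a description. Olfactory receptor probe sets themselves had a median log2 difference of 0.12 by sex, with 92.6% of the 1035 above 0, and of 0.06 by complement, with 77% above 0. The Wnt10b and Wnt5b differences by sex, 0.02 each, were smaller than that median, and the part of the shift in them was not tested. Wnt5a, though dimmer, did not follow the olfactory median (r = 0.05, rho = -0.08).

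**Figure D3:**
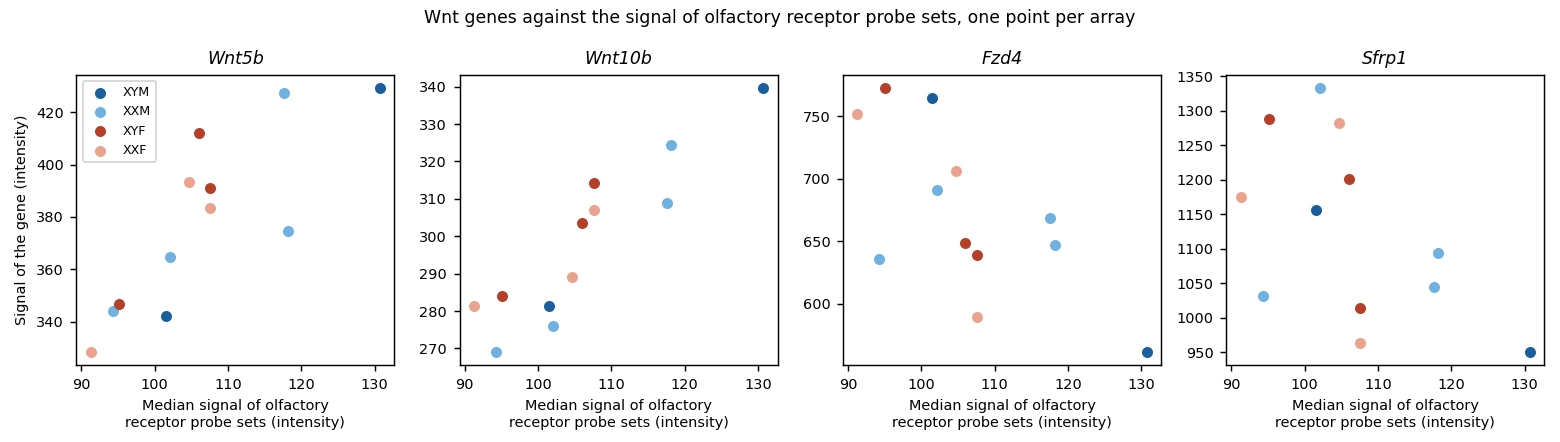
Signal of Wnt5b, Wnt10b, Fzd4 and Sfrp1 (vertical axes, linear intensity, not starting at 0) against the median signal of 1035 olfactory receptor probe sets on the same array (horizontal axis), 1 point per array, coloured by genotype. Wnt5b and Wnt10b are higher where that median is higher, and Fzd4 and Sfrp1 tend to be lower.

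Fzd4, a Frizzled that binds Wnts and also norrin and is best known from blood vessels of the retina, had a signal above 99.9% of the olfactory receptors. It read 765 and 561 in XYM and 636, 691, 668 and 647 in XXM, against 773, 648 and 639 in XYF and 752, 706 and 589 in XXF. The 2 XYM arrays were the second highest and the lowest of all 12. Males averaged 661 ± 67.1 and females 684.5 ± 70.9 (SD, n = 6 each), and the log2 difference was -0.05 (SE 0.10, adjusted p = 0.985, limma). XY minus XX was 0.00, with ratios of 0.866 to 1.16 in the 95% interval. By set of arrays the mean was 731 on arrays 1 to 4, 678 on arrays 5 to 8 and 609 on arrays 9 to 12, a wider range than that of the genotype means (660.4 to 687). Its correlation with the olfactory median was -0.68 and with the mean of the endothelial markers 0.639 (rho = 0.406; 12 arrays each, description only). With the mesenchymal markers it was 0.645 (rho = 0.601), with the cortical epithelial markers 0.54 (rho = 0.566) and with the thymocyte markers -0.364. Fzd4 thus did not follow the endothelial markers in particular. All 8 endothelial markers were below 0 by sex (median -0.11), with a summed signal of 7559 to 9426 on male arrays and 8210 to 11227 on female arrays, and their part in the Fzd4 values was not tested.

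Kremen1, a transmembrane receptor that joins Dickkopf to Lrp6 and takes Lrp6 off the cell surface, and whose loss in mice disturbs thymic epithelium, lay above all of the olfactory receptor probe sets. It read 2565 and 2587 in XYM and 2942, 2531, 2434 and 2909 in XXM, against 2819, 2583 and 2810 in XYF and 2762, 2259 and 2833 in XXF. The low values were on XXF array 7 and XXM array 6, and every genotype overlapped with the others. Males averaged 2661 ± 212 and females 2677.5 ± 225 (SD, n = 6 each), and the log2 difference was -0.02 (SE 0.08, adjusted p = 0.993, limma). For complement it was 0.00, with ratios of 0.888 to 1.13 in the 95% interval. Arrays 5 to 8 averaged 2451, against 2772 on arrays 1 to 4 and 2785 on arrays 9 to 12. With the 3 sets as a block Kremen1 had an interaction of -0.25 (unadjusted p = 0.0168, adjusted p = 0.765, limma), and without the block -0.14 (unadjusted p = 0.411). It was the 1 of 10 genes under an unadjusted 0.05 with the block, where 6.4% of all probe sets were.

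Dkk2, a Dickkopf that binds Lrp6, lay at the 88.2th percentile of the olfactory receptors, under the reference. Its signal was 221 and 219 in XYM and 193, 239.9, 244 and 219 in XXM, against 199, 217 and 197 in XYF and 233, 216 and 214 in XXF. XXM held the lowest and the 2 highest arrays, while both XYM arrays lay above the 3 XYF arrays. The log2 difference was 0.06 (SE 0.07) for sex and -0.07 for complement, where its unadjusted p of 0.373 in limma was the lowest of the 10 genes.

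Dkk3, a Dickkopf of divergent sequence whose effect on Wnt signalling is unsettled, was the most variable of the 10, with a highest to lowest ratio of 2.34, against 1.26 to 1.49 for the other 9. Its mean of 300.2 lay just under the reference, at percentile 94.7 of the olfactory receptors. It read 282 and 311.5 in XYM and 231.5, 274, 366 and 541 in XXM, against 252, 268 and 270.3 in XYF and 261, 292 and 255 in XXF. XXM arrays 10 and 6 were the 2 highest of all 12, and XXM array 2 was the lowest. Males averaged 334 ± 111 and females 266 ± 14.4 (SD, n = 6 each), and the log2 difference was 0.24 (SE 0.17, 95% interval -0.14 to 0.62, adjusted p = 0.985, limma). Without XXM arrays 6 and 10, an alternative chosen after seeing the data, it was 0.04 (adjusted p = 1), and the XXM minus XXF difference turned to -0.10, against 0.32 with them. Without XXM array 2 the sex difference was 0.33 (unadjusted p = 0.0459, adjusted p = 0.806, limma).

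The same 2 arrays carried genes of heart muscle. All 12 genes of a cardiac muscle list, assembled after the genes that follow Dkk3 had been seen, were highest on XXM array 10, and 10 of the 12 were higher on XXM array 6 than on any of the other 10 arrays. Some margins were narrow. Nkx2-5 read 522.7 on XXM array 10, against at most 510.4 on the other 10 arrays, and Myh7 read 230.3 on XXM array 6, against at most 229.8. Nppa and Nkx2-5 were not raised on XXM array 6. The share of all probe sets highest on XXM array 10 was not counted. Myl7, the atrial myosin light chain, read 4320.5 on XXM array 10 and 627 on XXM array 6, against 109.8 to 152 on the other 10 arrays. Actc1, cardiac actin, read 9407 and 3015.5 on these arrays, against 221 to 281 on the others, and Myh6, the atrial myosin heavy chain, 9909 and 1590, against 117 to 198. The summed signal of the list ran from 2825 to 62540 on male arrays and from 2964 to 3819 on female arrays. Dkk3 followed the mean log2 signal of the list with r = 0.96 (rho = 0.78, 12 arrays, description only). By rank, Wnt10b followed the list as closely (rho = 0.80, r = 0.50), and Wnt5b less so (rho = 0.56, r = 0.22). Dkk3 also followed the median of the olfactory receptor probe sets (r = 0.64, rho = 0.685), and the part of either in its values was not tested. The Dkk3 differences without both arrays are those given above.

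**Figure D4:**
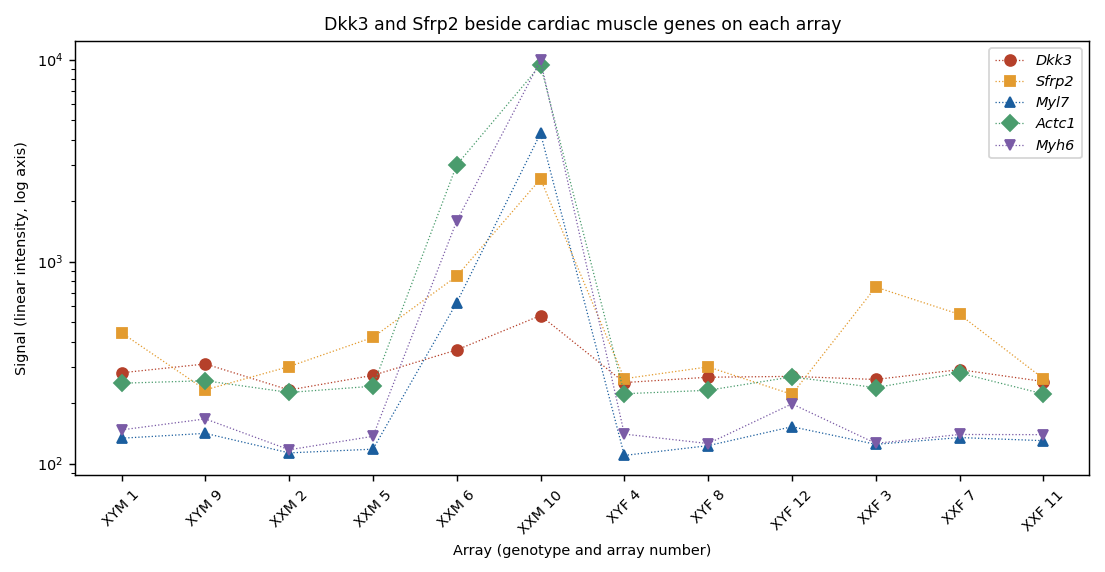
Signal (linear intensity on a log axis) of Dkk3, Sfrp2 and 3 cardiac muscle genes (Myl7, Actc1, Myh6) on each array, named by genotype and array number. All 5 genes peak on XXM array 10, where Dkk3 reads 541 and Myh6 reads 9909.

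Sfrp1, a soluble protein with a Frizzled-like domain that binds Wnts, lay above all of the olfactory receptor probe sets. It read 1156 and 950.3 in XYM and 1032, 1333, 1045 and 1094 in XXM, against 1288, 1201 and 1014 in XYF and 1175, 1282 and 963 in XXF. XXM array 5 was highest and XYM array 9 lowest. Males averaged 1102 ± 132 and females 1154 ± 136 (SD, n = 6 each), with a log2 difference of -0.08 (SE 0.10, adjusted p = 0.985, limma), and XY minus XX was -0.03. The interval for sex reached a ratio of 0.807, the lowest bound among the 10 genes. Like Fzd4, Sfrp1 was low on arrays 9 to 12, with a mean of 1005, against 1162 on arrays 1 to 4 and 1215 on arrays 5 to 8.

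Axin2, the scaffold of the destruction complex that β-catenin itself induces and that serves as the usual readout of the pathway, lay at the 98.6th percentile of the olfactory receptors. It read 428 and 441 in XYM and 426, 419.9, 379.8 and 435 in XXM, against 406, 428 and 493 in XYF and 447, 409.8 and 430 in XXF. XYF array 12 was highest and XXM array 6 lowest. Males averaged 422 ± 21.7 and females 436 ± 31.6 (SD, n = 6 each), and the log2 difference was -0.03 (SE 0.07, adjusted p = 0.985, limma), with ratios of 0.883 to 1.08 in the 95% interval. XY pups averaged 439 ± 32.4 (SD, n = 5) and XX pups 421 ± 21.5 (SD, n = 7), a log2 difference of 0.05 with ratios of 0.939 to 1.15. Axin2 thus had the narrowest spread of the 10 genes on the log2 scale (SD 0.09).

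Within the assumed sets of arrays 1 to 4, 5 to 8 and 9 to 12, each with 2 arrays of males and 2 of females, 1 of the 10 genes kept the sign of its sex difference in all 3 sets. By complement the sets were uneven, since arrays 5 to 8 held 1 XY and 3 XX arrays. The gene that kept its sign by sex was Wnt5a, with 0.01, 0.13 and 0.28 in the order of the sets. Dkk3 had -0.01, 0.18 and 0.64, and XXM array 10 belongs to the last set and XXM array 6 to the one before it. For complement, 4 of the 10 (Wnt4, Wnt5b, Wnt10b and Dkk2) kept their sign in all 3 sets, with Dkk2 lower and the other 3 higher in XY. In arrays 5 to 8 that sign rests on 1 XY array, XYF array 8. The share of all probe sets that kept their sign was not counted, so neither count is read as a result about these genes. With the sets as a block in limma 0 of the 10 passed an adjusted p of 0.05 in any contrast.

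Genes with the most similar profile were taken for each of the 10 from 14448 genes with a mean signal of 200 or more, as the 2 with the highest Pearson correlation over the 12 arrays. Wnt5a was closest to Col5a2 (r = 0.90) and Col3a1 (r = 0.87), both fibrillar collagens of connective tissue. It followed the mean of the mesenchymal markers with r = 0.79, and Col3a1 is itself one of these markers. Dkk3 was closest to Corin (r = 0.98) and Mybpc3 (r = 0.98), a protease and a thick filament protein of heart muscle, and without XXM arrays 6 and 10 these fell to 0.86 and 0.87. Mybpc3 also belongs to the cardiac muscle list used above. Wnt4 was closest to Kcnip3 (r = 0.86) and Fmo1 (r = 0.85), and it followed the cortical epithelial markers with r = 0.69. All Wnt4 correlations in this paragraph are those of its brighter probe set, which the second set followed weakly (r = 0.22). Fzd4 was closest to Fer (r = 0.95) and to Tjp1 (r = 0.94), a tight junction protein. Sfrp1 was closest to Emp1 (r = 0.91) and Zfp948 (r = 0.91), and Dkk2 to Nnmt (r = 0.87) and Rslcan18 (r = 0.84). Wnt5b was closest to Gtf2a1l (r = 0.95) and Gsg1l (r = 0.94), and Wnt10b to Syt6 (r = 0.97) and Apoa5 (r = 0.97), a liver apolipoprotein. Kremen1 was closest to Zfp414 (r = 0.96) and Hdhd5 (r = 0.96), and Axin2 to Pgls (r = 0.93) and Zbtb12 (r = 0.92). Among the 10 genes themselves, Sfrp1 went with Wnt4 (r = 0.77) and with Fzd4 (r = 0.77), while Fzd4 ran opposite to Wnt10b (r = -0.67). These values are the highest of many on the same 12 arrays and are given with no test. The closest profiles of other genes also fell without the 2 arrays furthest from the median of the gene. Wnt4 then had 0.71 with Kcnip3 and 0.695 with Fmo1, and Axin2 had 0.73 with Pgls and 0.76 with Zbtb12. For the rest of the 10 genes, Dkk3 included, the values without such arrays ran from 0.742 to 0.961.

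The rest of the pathway showed the same lack of calls. Of 84 further Wnt genes 83 had a single-gene probe set, 45 of them above the olfactory reference, and 0 of 83 passed an adjusted p of 0.05 by sex, complement or interaction in limma. At an unadjusted p under 0.05 in limma there was 1 of 83 by sex (Sfrp4), 1 by complement (Lef1) and 0 by the interaction. Of all probe sets 3.03%, 2.55% and 1.54% were under it, so the 83 genes held no excess. The median log2 difference was 0.02 by sex, where all probe sets had 0.003, and 0.02 by complement, where all had 0.006. Of the 19 Wnt ligands on the array, the 4 above included, 17 had a sex difference above 0, with a median of 0.05. Of these 19, 16 lay at or below the olfactory reference, and 15 of those 16 were above 0, the exception being Wnt1, beside the 92.6% of olfactory receptor probe sets above 0. Without the 10 genes, receptors split into 9 above 0 and 9 below by sex, extracellular inhibitors into 12 and 3, intracellular components into 3 and 16, and targets into 6 and 9, with 0 calls in each. Over all probe sets 51.3% were above 0 by sex. With the 10 genes included, 15 of 19 receptors, 9 of 19 inhibitors, 18 of 19 intracellular components and 9 of 16 targets lay above the olfactory reference. The part of signal level in these splits was not tested.

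**Figure D5:**
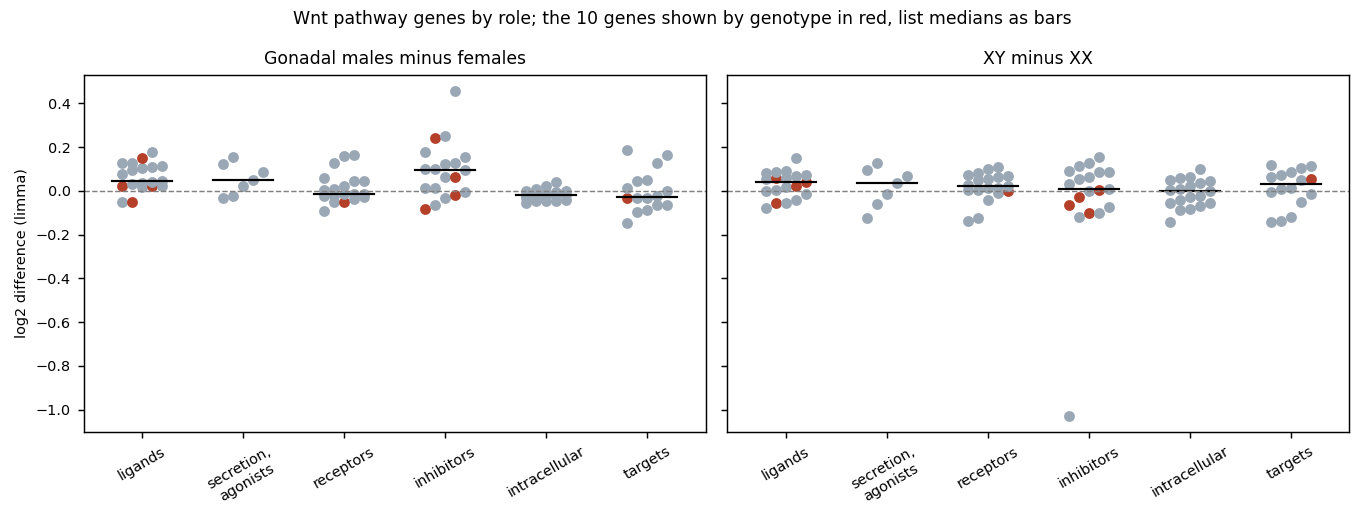
Log2 differences (vertical axis) of Wnt pathway genes by role for gonadal males minus females and for XY minus XX; each point is a gene, the 10 genes plotted by genotype are red, and black bars are list medians. Nearly all points lie close to 0, and the lowest point for XY minus XX, at -1.03, is Sfrp2.

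Sfrp4, a relative of Sfrp1, read 161 and 179.7 in XYM and 143.5, 169.9, 179.8 and 155.5 in XXM, against 118, 140.5 and 129 in XYF and 172, 134 and 147 in XXF. The XYM arrays lay above the XYF arrays while XXM and XXF overlapped. Its sex difference was 0.25 (SE 0.09, unadjusted p = 0.0135, adjusted p = 0.985, limma), at a mean signal of 153, under the reference. The other 2 lowest for sex were Sostdc1, an antagonist of Wnt and BMP signals, with 0.16 (unadjusted p = 0.0731), and Ccn4, a matricellular Wnt target, with 0.16 (unadjusted p = 0.0954), and neither passed in limma (adjusted p = 0.985 each). Without XXM arrays 6 and 10 the sex difference was 0.23 for Sfrp4 (unadjusted p = 0.0397), 0.15 for Sostdc1 (unadjusted p = 0.135) and 0.10 for Ccn4 (unadjusted p = 0.304) in limma. Lef1, the β-catenin partner that is abundant in thymocytes, read 2888 and 2635 in XYM and 2757, 2931 and 2929.7 in XYF, against 3384, 3062, 3025 and 2948 in XXM and 3188, 2962 and 3203 in XXF. All 5 XY arrays lay below all 7 XX arrays, the nearest being 2931 on XYF array 8 and 2948 on XXM array 10. Of all probe sets 0.166% did not overlap in either direction. Lef1 was named for its low p on these same arrays, so that share does not gauge how unusual its separation was. Separations among the other further Wnt genes were not counted. The log2 difference of Lef1 was -0.14 (SE 0.06, unadjusted p = 0.0338, adjusted p = 1, limma). All 10 measured thymocyte markers were likewise below 0 for XY minus XX (median -0.12), with a summed signal of 35514 to 37088 on XY arrays and 37387 to 41206 on XX arrays, and their part in the Lef1 difference was not tested. Sfrp2, another secreted Frizzled-related protein, was highest on XXM array 10 and read 444 and 232 in XYM and 263, 301 and 220.2 in XYF, against 302, 422, 847 and 2567 in XXM and 748.5, 548 and 264 in XXF. Its difference for complement was -1.03 (SE 0.48, unadjusted p = 0.0542, adjusted p = 1, limma), and without XXM arrays 6 and 10, which carried the heart muscle genes, it was -0.52 (unadjusted p = 0.107). Kremen2, the paralog of Kremen1, had 0.15 for complement (unadjusted p = 0.0589, adjusted p = 1, limma).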

How the data were processed

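RNA of day 7 thymic epithelium/stroma from FCG pups was measured on 12 arrays, and the group of each array was taken from its label. The authors deposited linear intensity values for 35556 probe sets. Expression Console 1.1 from Affymetrix and the PLIER summary stand in the notes of the submitters, whereas the methods describe RMA with quantile normalization; the values were used as deposited, and 0 value columns were left without a sample. Of the probe sets, 21789 had 1 gene symbol, 1621 several and 12146 none. Names came from the platform annotation and were updated through gene identifiers to RefSeq symbols where these were found.

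The log2 of each intensity entered a limma fit (version 3.58.1, R 4.3.3, lmFit and eBayes) with a model of the 4 genotypes sharing 1 estimate of the spread. Sex was the mean of both male minus the mean of both female genotypes, and complement was formed likewise. The Benjamini-Hochberg adjustment covered every probe set, and 0.05 was the threshold. Genes named in the text were the 10 chosen ones, the 3 other pathway genes with the lowest unadjusted p for sex and the 3 for complement, and the 2 closest profiles per gene. Cardiac genes and Wnt1 were named after their values were seen. The 10 genes and all lists were chosen with earlier results of these data known. Alternatives were another quantile normalization, an offset of 16, a signal limit of 200, 1-symbol probe sets only, the mean over probe sets, an additive model, a two-way model without moderation, trend and robust moderation, array weights, array sets as a block and leaving out each array; leaving out XXM arrays 6 and 10 together was added after seeing the data. The fits were tested on simulated data with noise drawn independently for each probe set and array. Such data hold no shift shared by many probe sets of an array, as the olfactory receptors show here, so that case was not tested. Figures were drawn with matplotlib 3.10.9. The number of arrays limits the precision.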

Additional observations from a re-analysis of the deposited data

Results flagged for a closer look

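Single arrays were flagged in 5 of 80 groups examined with Dixon's criterion, where chance gives about 1 in 20, so the count is not read as an excess. The groups overlap, and the same array was flagged in more than 1 group for Wnt4 and for Sfrp2. Wnt4 read 964 on XXM array 5, against a next highest value of 803 in XXM and of 816 among all 6 male arrays. Axin2 read 379.8 on XXM array 6, below the next lowest male value of 419.9. Sfrp2 read 2567 on XXM array 10, where the next value was 847, both among the 6 male arrays and among the 7 XX arrays.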

How the results depend on the processing

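In all 23 alternatives 0 of the genes tested passed an adjusted p of 0.05 by sex or by complement, where the lowest was 0.499; a mean signal of 200 or more left 9 of the 10, without Wnt5a. Of the 20 differences by sex or complement 13 changed sign at least once, and these were at most 0.103 from 0 on the log2 scale. With array weights the Fzd4 complement difference was -0.018. With array sets as a block the complement difference was -0.054 for Kremen1 and 0.012 for Sfrp1, and 1 of the 10 genes, Kremen1, had an unadjusted p under 0.05 for the interaction (6.4% of all probe sets), for XYM minus XYF (12.5%) and for XYM minus XXM (9.73%). With XXM arrays 6 and 10 left out together, an alternative chosen after seeing the data, the sex difference was -0.024 for Wnt5b and -0.03 for Wnt10b, and the complement difference was -0.011 for Wnt4, 0.001 for Wnt5a, -0.002 for Fzd4, -0.006 for Kremen1 and 0.102 for Dkk3. Leaving out 1 array at a time, the sex difference ran from -0.062 to 0.101 for Wnt5b, -0.043 to 0.092 for Wnt10b, -0.163 to 0.06 for Fzd4, -0.07 to 0.012 for Kremen1 and -0.064 to 0.006 for Axin2. The complement difference ran from -0.012 to 0.058 for Wnt4, -0.134 to 0.011 for Wnt5a, -0.039 to 0.124 for Wnt5b, -0.011 to 0.125 for Wnt10b, -0.111 to 0.112 for Fzd4, -0.049 to 0.033 for Kremen1, -0.192 to 0.012 for Dkk3 and -0.1 to 0.042 for Sfrp1. In the same fits the count of the 10 genes under an unadjusted 0.05 ran from 0 to 1 for sex, the interaction, XXM minus XXF, XYM minus XYF and XYF minus XXF. The 1 gene was Dkk3 without XXM array 2, for sex (5.16% of all probe sets) and XXM minus XXF (3.34%). It was Wnt5a without XXF array 3 for sex (2.22%), and without XXF array 11 for the interaction (1.65%), XYM minus XYF (2.98%) and XYF minus XXF (1.7%). The causes were not tested. No paired analysis was possible because the label numbers run from 1 to 12 and no number occurs in more than 1 group. The number of arrays, 2 for XYM, limits every contrast, and Dkk3 had the widest interval.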
